A study of Mus musculus with 29 samples.

Results

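The genes of oxidative phosphorylation of the nuclear and the mitochondrial genome were followed in the NRAS-mutant mouse melanoma line NMM after stimulation with interferon gamma (IFNγ) and transforming growth factor beta (TGFβ). Genes were chosen by name alone: protein-coding genes whose symbol starts with Ndufa, Ndufb, Ndufc, Ndufs or Ndufv, Sdh followed by a to d, Uqcr, Cox4 to Cox8 or Atp5, and the mitochondrially encoded mt-Nd, mt-Co, mt-Cytb and mt-Atp genes. This gave 102 of the 28229 genes in the table, 89 of them nuclear and 13 mitochondrial. By the letter of the rule the 4 assembly factors Sdhaf1 to Sdhaf4 were included, while those of complex I (Ndufaf) were not.

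Oxidative phosphorylation couples electron transfer from NADH and succinate to oxygen with the synthesis of ATP in the inner mitochondrial membrane. Complex I (NADH dehydrogenase), complex II (succinate dehydrogenase), complex III (cytochrome bc1) and complex IV (cytochrome c oxidase) carry the electrons, and complex V (ATP synthase) uses the proton gradient that complexes I, III and IV build. Complex II is made of nuclear products only, while the other complexes combine nuclear subunits, which are imported, with subunits transcribed and translated inside the organelle. The mitochondrial genes are transcribed as long polycistronic RNAs from both strands and are then cut apart, so the level of each mature transcript depends on its processing and turnover as well as on transcription.

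The cells received medium, IFNγ at 100 ng/ml or TGFβ at 10 ng/ml for 2, 6, 12 or 24 h, were washed with PBS, and were then given a second stimulus for 24 h. Each of 7 sequences was sequenced at all 4 durations: medium then medium (called medium alone here), a cytokine only as the second stimulus (medium then IFNγ, medium then TGFβ), a cytokine only as the first (IFNγ then medium, TGFβ then medium), and both in turn (IFNγ then TGFβ, TGFβ then IFNγ). A mix of the 2 cytokines after 24 h of medium was sequenced once. All groups are 1 cell line grown without T cells or other host cells, and the 4 durations of a sequence served as its replicates because the labels name no others. The p-values thus rest on the spread of these libraries, part of which may be technical.

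Library totals ran from 17179530 to 23668015 counts, and 94 of the 102 genes had enough counts to be tested, 83 nuclear and 11 mitochondrial, among 14935 tested genes in all. Of 8 melanocyte markers 4 were in the table: Mitf lay at 8.4 to 20.2 CPM, the counts scaled to library size, and Gpnmb at 26.4 to 276, while Pmel reached at most 0.444 and Sox10 at most 0.135. Tyr, Tyrp1, Dct and Mlana were not in the table, in which every gene had at least 1 count in some library. The leukocyte markers in the table summed to 2.95 to 6.18 CPM, nearly all of it Cd68 (2.84 to 6.18), with Ptprc at most 0.172. Of 7 markers of fibroblasts and endothelium, Lum, Col1a1, Pecam1 and Kdr were at or below 0.751 CPM, whereas Dcn (26.0 to 461), Cdh5 and Pdgfra were measured. In these bulk libraries, a lower level through fewer cells that hold a transcript and through less RNA per cell cannot be told apart.

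Several mitochondrial genes have a near-identical copy in the nuclear genome, so their counts are shown with the sequence that limits them. Nuclear pseudogenes on chromosome 1 of GRCm38, between positions 24611535 and 24616197, repeat a long stretch of the mitochondrial chromosome (MT). In a comparison of all 50-base words, mt-Co2 shared 100% with Gm28661, mt-Co3 99.9% with Gm28437, mt-Atp6 99.5% with Gm10925, mt-Nd4l 98.8% with Gm10222 and mt-Nd3 98.0% with Gm28438. mt-Nd4 shared 62.2% and mt-Co1 51.1%, mt-Nd2 8.2% and mt-Nd5 7.6%, and mt-Nd1, mt-Nd6, mt-Cytb and mt-Atp8 shared 0%. The comparison covered annotated genes only. A copy without annotation would be missed, so 0% does not exclude one, for mt-Atp8 as for the others. The first 60 bases of mt-Co2 (MT:7013-7072, plus strand) are letter for letter those of its copy (chr1:24615506-24615565, minus strand), and those of mt-Nd3 (MT:9459-9518, plus strand) differ from its copy (chr1:24613060-24613119, minus strand) by T3C, counted from the first base of the gene and set in capitals here. The letters are those of the GENCODE M21 reference on GRCm38.
mt-Co2: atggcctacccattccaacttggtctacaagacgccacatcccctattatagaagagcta
Gm28661: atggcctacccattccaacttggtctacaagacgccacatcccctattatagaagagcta
mt-Nd3: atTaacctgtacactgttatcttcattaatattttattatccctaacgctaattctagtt
Gm28438: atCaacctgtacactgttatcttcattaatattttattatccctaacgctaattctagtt

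How reads that match both places were counted is not given in the sources used here. The table listed more counts for the copy than for the gene in 4 cases: a mean of 141.5 against 54.5 counts per library for Gm28661 and mt-Co2, 1028.6 against 57.7 for Gm10925 and mt-Atp6, 49.1 against 10.3 for Gm28437 and mt-Co3, and 8.7 against 2.2 for Gm10222 and mt-Nd4l. For mt-Nd3 the gene had the higher mean, 99.7 counts against 10.3 for Gm28438, and for mt-Co1 the gene had 74141.7 counts against 533.8 for Gm29216. Values of mt-Co2, mt-Co3, mt-Atp6, mt-Nd4l and mt-Nd3 are therefore uncertain, and part of those of mt-Nd4 and mt-Co1. By this comparison with annotated genes, the best separated of the tested mitochondrial genes are mt-Nd1, mt-Nd2, mt-Nd5, mt-Nd6 and mt-Cytb.

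**Figure D1:**
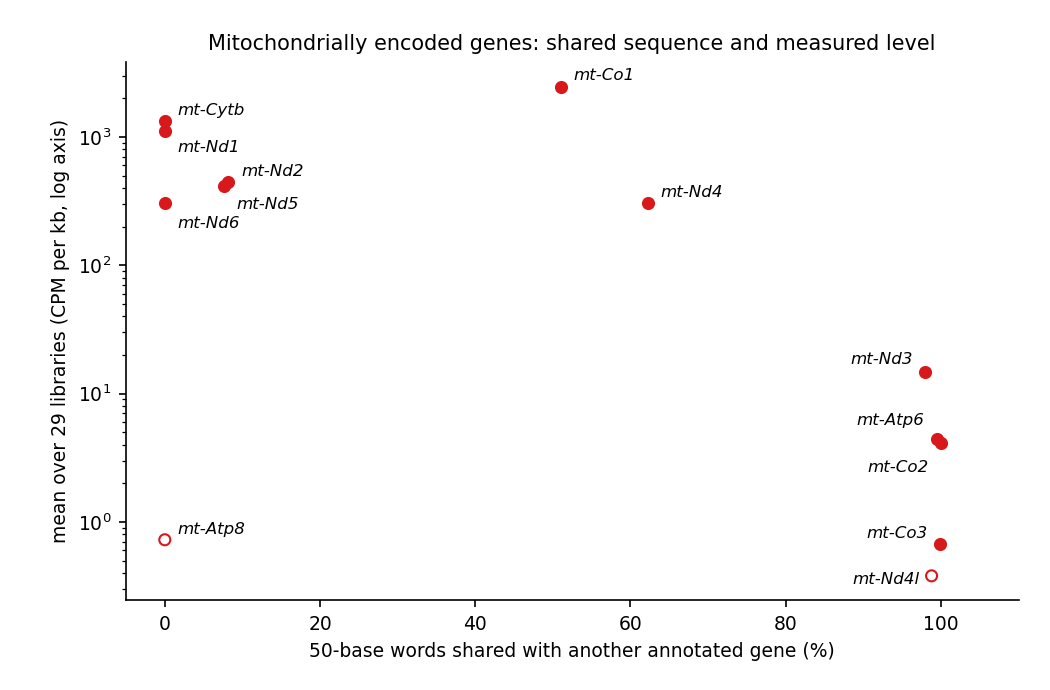
Share of each mitochondrial gene's 50-base words that also occur in another annotated gene (x axis, percent) against its mean level over 29 libraries (y axis, CPM per kb of summed exon length, log axis); filled points were tested, open points had too few counts. The 5 genes at or above 98% lie at or below 14.7 CPM per kb, and the 5 tested genes under 10% at 307 CPM per kb or more. The untested mt-Atp8 lies at 0.726, and a copy of it outside annotated genes would not be seen here.

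Per kb of summed exon length, the median of the mitochondrial genes stood above that of the nuclear ones. This length counts every annotated exon of a gene, 957 bases for mt-Nd1 and 5628 for Ndufb2. Nuclear genes with many annotated exons therefore come out lower per kb, and the part of this in the difference was not tested. The median over the tested genes was 307 CPM per kb for the mitochondrial genome (0.674 to 2470) and 31.4 for the nuclear genome (0.478 to 269). mt-Co1, the catalytic subunit of cytochrome c oxidase, led at 2470 CPM per kb, before mt-Cytb, the cytochrome b of complex III, at 1330 and the complex I subunit mt-Nd1 at 1110. mt-Nd2 (447), mt-Nd5 (412), mt-Nd6 (307) and mt-Nd4 (305) followed. Below the nuclear median were mt-Nd3 (14.7), mt-Atp6 (4.39), mt-Co2 (4.10) and mt-Co3 (0.674). The low level of mt-Co2 and mt-Co3 beside mt-Co1 goes with their shared sequence, and the part of that sequence in their levels was not tested. The mt-Co1 transcript alone held 46.5% of the mitochondrial counts, mt-Cytb 18.5% and mt-Nd1 13.0%.

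Among nuclear genes, the catalytic beta subunit of ATP synthase Atp5b had the highest level, 269 CPM per kb, and its partner alpha subunit Atp5a1 the next, 230. The small complex IV subunit Cox7b (200), the complex I subunit Ndufa2 (155), the ATP synthase gamma subunit Atp5c1 (129), and Cox4i1 and Atp5mpl (both 121) followed. At the other end stood Ndufb2 (0.478), the assembly factor Sdhaf3 (0.821) and the c-ring gene Atp5g1 (1.83). Their summed exon lengths are 5628, 5095 and 4912 bases, so their rank depends on the length used. Without division by length their means were 2.69, 4.18 and 8.99 CPM. The tissue isoforms of complex IV and related genes were nearly silent: over all 29 libraries the table held 2 counts for Cox4i2, 7 for Cox6a2, 25 for Cox7a1, 17 for Cox7b2, 65 for the testis isoform Cox6b2 and 8 for Ndufa4l2. Their partners were measured in every library, with means of 187 CPM for Cox4i1, 53.9 for Cox6a1, 42.7 for Cox6b1, 17.5 for Cox7a2 and 32.2 for Ndufa4. These 6 genes with mt-Atp8 (83 counts) and mt-Nd4l (65 counts) are the 8 that were not tested.

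The mitochondrial genes varied more between libraries than the main nuclear subunits. The coefficient of variation of CPM over the 29 libraries was 56.6% for mt-Nd3, 36.6% for mt-Cytb, 35.6% for mt-Nd1, 32.4% for mt-Nd2, 18.0% for mt-Nd6 and 13.6% for mt-Co1. It was 4.0% for Cox4i1, 4.2% for Atp5a1 and 5.4% for Atp5b. Some tested nuclear genes varied more than mt-Nd6, among them Ndufa4 (28.5%), Sdhaf4 (27.9%), Ndufb2 (23.9%), Cox5b-ps (22.4%), Uqcrh (20.7%) and Ndufv3 (20.7%).

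The genes of each genome were also summed per library. In medium alone the mitochondrial genes made up 0.848 ± 0.181% of the counts (SD, n = 4) and the nuclear genes 0.764 ± 0.0196%. Medium then IFNγ had the lower sums, 0.614 ± 0.0540% mitochondrial and 0.671 ± 0.0120% nuclear, and TGFβ then IFNγ stood beside it with 0.620 ± 0.111% and 0.675 ± 0.0337%. The other sequences kept nuclear sums of 0.749 to 0.778%, and the mitochondrial sum was highest in IFNγ then medium, 1.03 ± 0.0970%. The nuclear sums of the 8 libraries that received IFNγ second lay below every library of the other 5 replicated sequences, whereas the mitochondrial sums overlapped.

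The ratio of the 2 sums does not depend on library scaling. On the log2 scale it was -0.0537, 0.582, -1.969e-05 and -0.00887 in medium alone at 2, 6, 12 and 24 h. In medium then IFNγ it was -0.130, 0.0109, -0.143 and -0.263. In IFNγ then medium it was 0.296, 0.450, 0.348 and 0.587. The medium library at 6 h stood far above the other 3 of its group, medium then IFNγ was below medium at each duration, and IFNγ then medium did not overlap with medium then IFNγ. The difference of the means between IFNγ then medium and medium then IFNγ was 0.551, with 0.496 to 0.599 when any 1 library was left out. Medium then IFNγ was 0.261 below medium alone and IFNγ then medium 0.290 above it, the latter in 3 of 4 durations, and both overlapped with medium. Without the medium library of 6 h these differences were -0.110 and 0.441, and IFNγ then medium then lay apart from medium alone. Each difference here rests on a sum over chosen genes, so it is given without a test. TGFβ then medium (mean 0.294), IFNγ then TGFβ (0.358), medium then TGFβ (0.0818) and TGFβ then IFNγ (-0.138) each spread over a range that overlapped with medium alone. For TGFβ then medium and IFNγ then TGFβ this overlap came from the medium library of 6 h. Without it TGFβ then medium was 0.315 above medium alone and lay apart from it. IFNγ then TGFβ, at 0.212 or more, also lay above the other medium libraries, at -1.969e-05 or less.

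**Figure D2:**
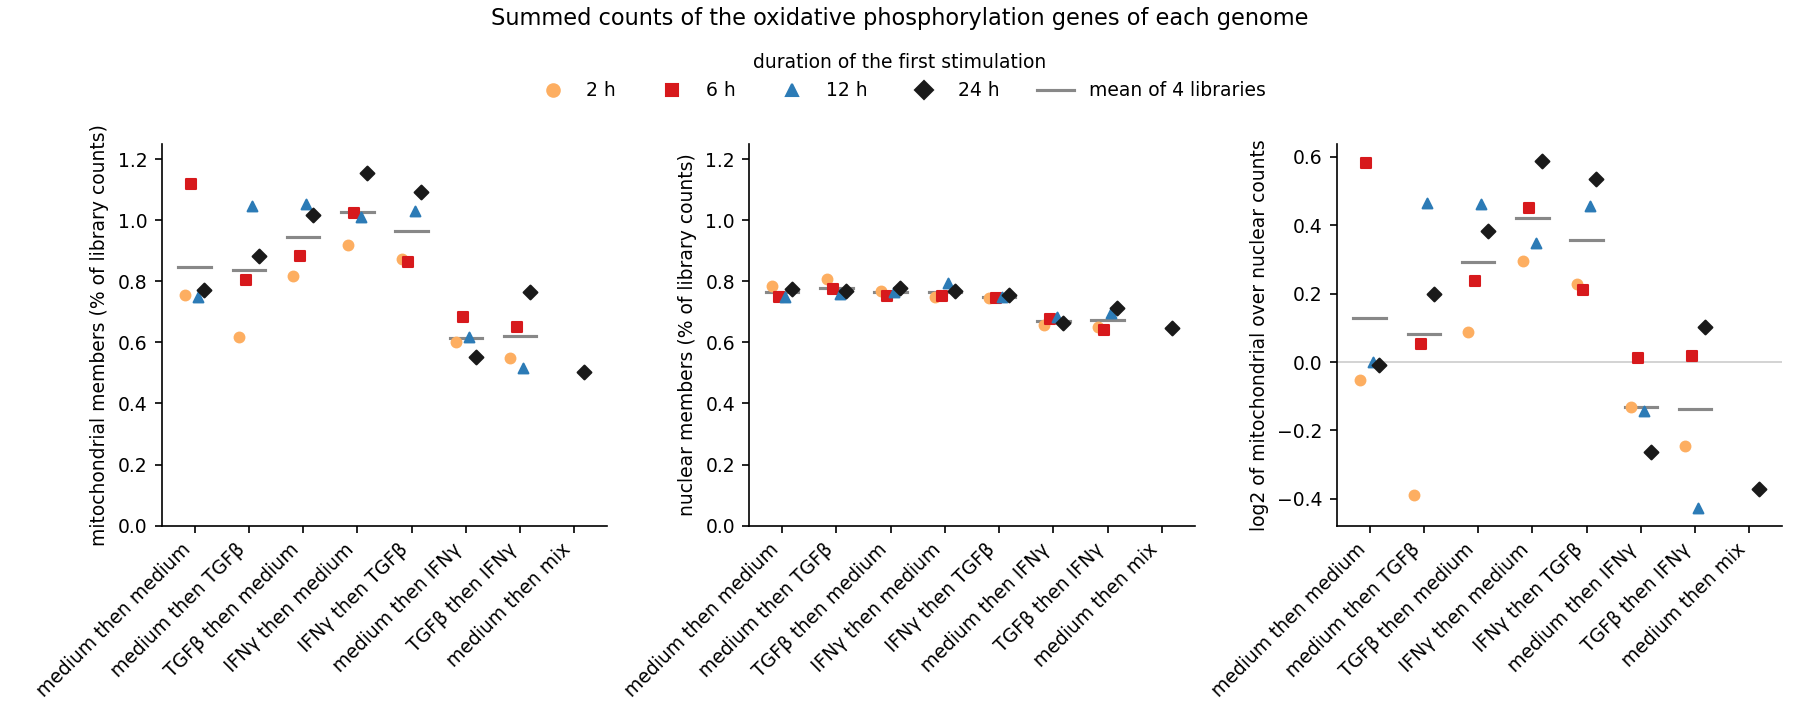
Summed counts of the mitochondrial genes (left, percent of library counts), of the nuclear genes (middle, percent) and log2 of their ratio (right) by sequence of stimuli (x axis); points are libraries by duration of the first stimulus, and lines are means of 4 libraries. Libraries with IFNγ as the second stimulus lie lowest in the nuclear panel, at group means of 0.671% and 0.675%, and the medium library of 6 h stands above its group in the ratio at 0.582.

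The first comparison asked how 24 h of IFNγ directly before harvest changed these genes (medium then IFNγ against medium alone). Of 83 nuclear genes 40 fell and 4 rose, and of 11 mitochondrial genes 4 fell and 0 rose, at an adjusted p below 0.05 in edgeR's quasi-likelihood test with Benjamini-Hochberg adjustment over all tested genes. Among all 14935 genes tested 22.7% rose and 21.2% fell, 43.8% together, so the share of these nuclear genes that fell was above that of all genes and the share that rose below it. A fit of only these 2 groups called 24 nuclear genes lower and 2 higher, beside 36.6% of all genes. The median log2 fold change was -0.14 over the nuclear genes and -0.40 over the mitochondrial genes, beside -0.01 over all genes. Below 0 were 64 of 83 nuclear and 11 of 11 mitochondrial genes.

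Among mitochondrial genes the complex I subunits mt-Nd1, mt-Nd2 and mt-Nd3 and the complex III subunit mt-Cytb fell. mt-Nd1 (MT:2751-3707, plus strand) had 940, 1250, 820 and 863 CPM in medium alone at 2, 6, 12 and 24 h, and 595, 746, 568 and 592 CPM in medium then IFNγ. The groups did not overlap, and the log2 fold change was -0.64 (SE 0.16, adjusted p = 0.0028). mt-Cytb (MT:14145-15288, plus strand) had 1280, 2320, 1210 and 1220 CPM against 850, 1090, 860 and 856 CPM, again without overlap but with 1 medium library far above the others. Its log2 fold change was -0.72 (SE 0.21, adjusted p = 0.0067). mt-Nd2 had 436, 639, 365 and 389 CPM against 287, 369, 268 and 277 CPM, and the groups met at 365 and 369 CPM (log2 -0.61, SE 0.17, adjusted p = 0.0066). mt-Nd3, whose sequence is shared with Gm28438, was at only 2.02 to 4.51 CPM in medium and 1.51 to 2.18 CPM after IFNγ, which overlapped (log2 fold change -0.90, SE 0.25, adjusted p = 0.0059).

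The cytochrome c oxidase subunits of the mitochondrial genome and the remaining genes did not pass the test. mt-Co1, the most abundant, had 3470, 4810, 3740 and 3880 CPM in medium alone and 3360, 3520, 3710 and 3110 CPM in medium then IFNγ, which overlapped (log2 fold change -0.21, adjusted p = 0.078). The values were -0.29 for mt-Co2, -0.44 for mt-Co3, -0.40 for mt-Nd4 (adjusted p = 0.051), -0.28 for mt-Nd5 and -0.30 for mt-Atp6. mt-Nd6, the only one of these genes on the other strand, had 133, 243, 165 and 145 CPM against 136, 169, 138 and 144 CPM (log2 fold change -0.22, adjusted p = 0.31). The medium library at 6 h carried the highest level of mt-Nd1, mt-Cytb, mt-Nd2, mt-Nd3, mt-Co1 and mt-Nd6 in its group. Without it, mt-Nd1 (log2 fold change -0.49, adjusted p = 0.021) and mt-Nd3 (-0.61, adjusted p = 0.044) passed the test, and mt-Nd2 (-0.41, adjusted p = 0.058) and mt-Cytb (-0.42, adjusted p = 0.074) did not.

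Nuclear subunits fell in each of the complexes. In complex I 19 of 37 fell and 1 rose, in complex II 2 of 4 fell, in complex III 4 of 8 fell and 1 rose, in complex IV 7 of 13 fell and 1 rose, and in complex V 7 of 17 fell. The median log2 fold change was -0.15 in complex I, -0.06 in complex III, -0.16 in complex IV and -0.04 in complex V. Of the assembly factors of complex II, Sdhaf4 fell and Sdhaf2 rose.

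Ndufa4 (6:11900292-11907497, minus strand), a small subunit first assigned to complex I and since placed in complex IV, was among the genes with the widest separation. It had 37.8, 34.7, 36.0 and 35.2 CPM in medium alone and 19.5, 19.1, 19.8 and 22.5 CPM in medium then IFNγ, a fold change of 0.562 (log2 -0.83, SE 0.11, adjusted p = 1.9e-06). Uqcrh, the hinge protein of complex III (4:116066965-116075071, minus strand), had 128, 156, 126 and 118 CPM against 77.6, 93.4, 82.0 and 76.7 CPM (log2 -0.68, SE 0.09, adjusted p = 2.4e-06). In both genes every library after IFNγ lay below every medium library. Sdhc, a membrane anchor of complex II (1:171127165-171150603, minus strand), had 99.8, 122, 104 and 96.2 CPM against 71.8, 77.1, 72.1 and 62.3 CPM (log2 -0.57, SE 0.07, adjusted p = 6.3e-07). The small ATP synthase subunit Atp5mpl (12:111961375-111966977, minus strand) had 157, 187, 159 and 145 CPM against 105, 111, 120 and 110 CPM (log2 -0.54, SE 0.08, adjusted p = 7.7e-06). These groups were apart as well.

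Sdhaf4, which assists the assembly of the flavoprotein Sdha into complex II (1:23995939-24005656, minus strand), had the lowest log2 fold change of the nuclear genes at a low level, 5.21, 4.56, 3.70 and 4.04 CPM in medium alone against 2.13, 1.79, 3.09 and 2.22 CPM (log2 -0.91, SE 0.17, adjusted p = 0.00019). Its neighbour in function Sdhaf2, which attaches the flavin to that subunit (19:10500534-10526142, minus strand), moved the other way, from 38.4, 37.8, 36.6 and 43.1 CPM to 57.1, 52.8, 54.4 and 57.0 CPM (log2 0.51, SE 0.08, adjusted p = 1.1e-05). Both pairs of groups were apart. Uqcrq, a small subunit of complex III (11:53427922-53430831, minus strand), rose from 103, 97.4, 94.6 and 104 CPM to 123, 130, 118 and 115 CPM (log2 0.28, SE 0.05, adjusted p = 0.00015), without overlap. Cox5a of complex IV (log2 0.19, adjusted p = 0.0054) and the complex I subunit Ndufs4 (log2 0.16, adjusted p = 0.03) were the other nuclear genes that rose. Both calls were lost in a fit of only the 2 groups. That of Ndufs4 was also lost in several fits that left out 1 library, with edgeR adjusted p up to 0.095.

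The catalytic cores differed from these small subunits in size of change. The ATP synthase subunits Atp5b (log2 fold change 0.10) and Atp5a1 (0.02), the complex III core proteins Uqcrc1 (0.04) and Uqcrc2 (0.05), the complex I subunit Ndufv1 (-0.09), the iron-sulfur subunit of complex II Sdhb (-0.07) and its anchor Sdhd (-0.09) did not pass the test. Ndufs1 (-0.16) and Ndufb8 (-0.18) of complex I, the flavoprotein Sdha (-0.13), the Rieske protein Uqcrfs1 (-0.16) and Cox6c (-0.16) fell. None of these calls held in a fit of only the 2 groups. Ndufs1 was also lost without the duration factor (edgeR adjusted p = 0.072), and Uqcrfs1 without the 6 h medium library (log2 -0.074, adjusted p = 0.14). Of the expressed members of the isoform pairs, Cox6b1 (-0.41) and Cox7a2 (-0.48) fell with Ndufa4, while Cox4i1 (-0.08), Cox6a1 (-0.04) and Cox8a (0.01) did not pass the test. Cox7b, a highly expressed small subunit, fell from 247, 253, 236 and 255 CPM to 180, 198, 187 and 179 CPM (log2 -0.41).

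**Figure D3:**
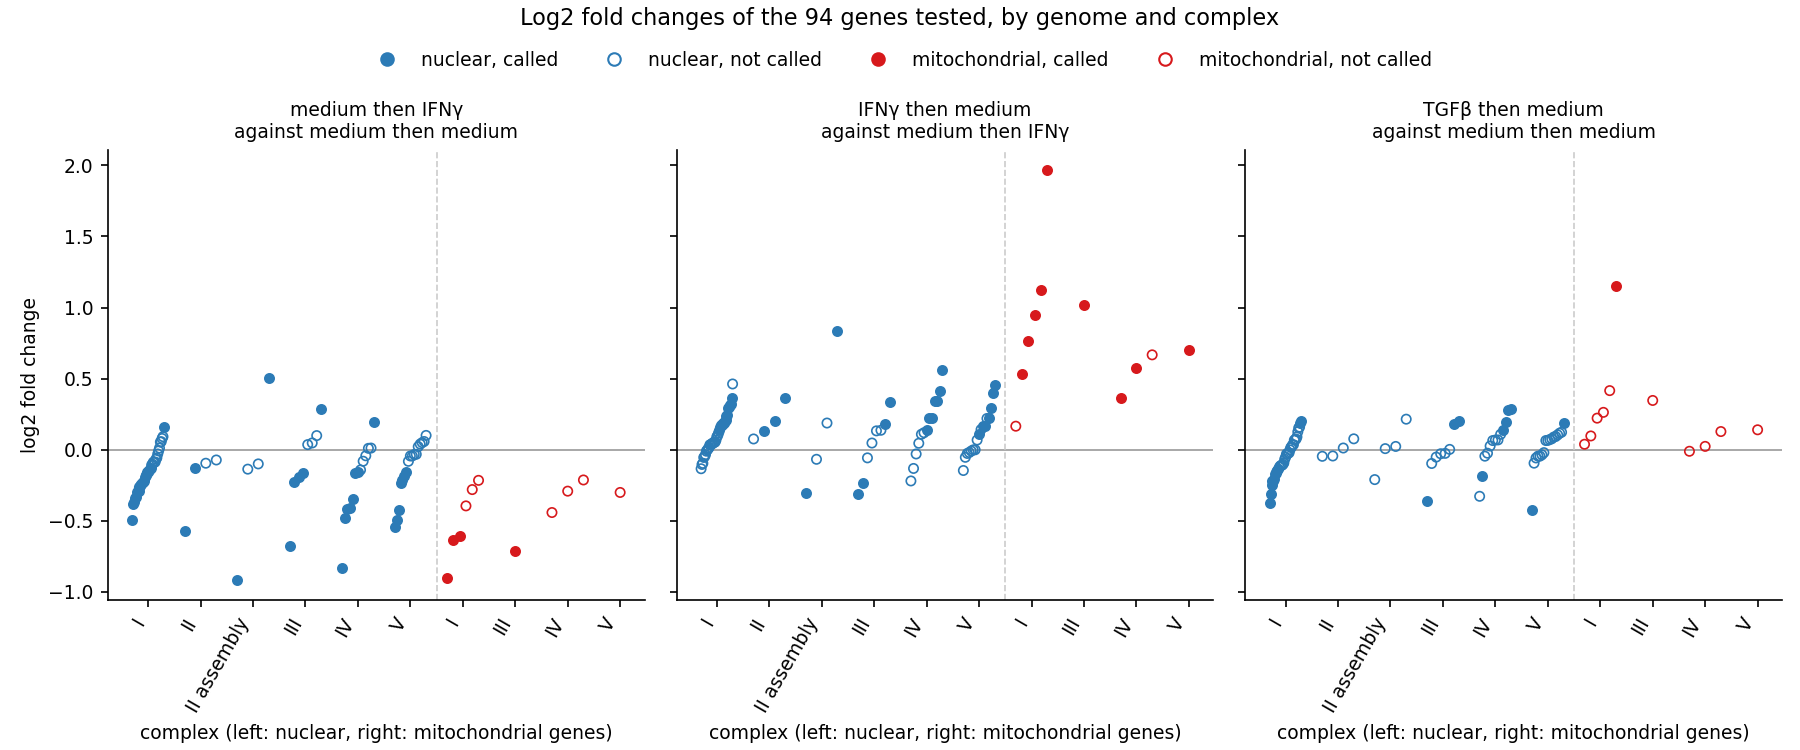
Log2 fold change (y axis) of each tested gene by complex (x axis). The panels show medium then IFNγ against medium alone (left), IFNγ then medium against medium then IFNγ (middle) and TGFβ then medium against medium alone (right). Blue points are nuclear and red points mitochondrial genes, filled where called at an adjusted p below 0.05. In the left panel 40 of 83 nuclear and 4 of 11 mitochondrial points are called lower, and in the middle panel 35 and 9 are called higher.

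The same cells changed in other ways under IFNγ. Of the 7 fibroblast and endothelium markers 4 were tested and 3 fell: Dcn by 2.14, Col1a1 by 1.45 and Cdh5 by 0.56 on the log2 scale. The sum of the 7 markers lay at 100 to 480 CPM in medium alone and at 37.8 to 70.2 CPM in medium then IFNγ, while the leukocyte markers summed to 4.98 to 5.67 and 2.95 to 5.88 CPM. The 4 melanocyte markers in the table summed to 164 to 290 CPM in medium alone and 107 to 178 CPM in medium then IFNγ. Of these Mitf rose by 0.29 on the log2 scale, and Gpnmb did not pass the test (-0.58, adjusted p = 0.082). Whether these genes have a part in the result was not tested. Within the genes with under 10% of their 50-base words shared, a limit chosen after the values were seen, 35 of 69 nuclear genes fell and 4 rose, and 3 of 5 mitochondrial genes fell. Above it 5 of 14 nuclear and 1 of 6 mitochondrial genes fell.

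IFNγ given first and washed away was compared with IFNγ given second (IFNγ then medium against medium then IFNγ). The comparison shares the medium then IFNγ libraries with the one above, so the opposite signs are not independent. Mitochondrial genes were higher with IFNγ first in 9 of 11 cases and lower in 0. Of the nuclear genes 35 of 83 were higher and 3 lower, where 41.6% of all genes were called, 20.8% higher and 20.8% lower. The median log2 difference was 0.70 for mitochondrial and 0.12 for nuclear genes, beside 0.01 over all genes.

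mt-Nd1 had 1100, 1370, 1370 and 1720 CPM in IFNγ then medium at 2, 6, 12 and 24 h, beside the 595, 746, 568 and 592 CPM of medium then IFNγ (log2 difference 1.12, SE 0.16, adjusted p = 1.1e-05 by edgeR). mt-Cytb had 1530, 1810, 1860 and 2350 CPM beside 850, 1090, 860 and 856 CPM (log2 1.02, SE 0.21, adjusted p = 0.00039). mt-Nd2 had 464, 568, 581 and 749 CPM beside 287, 369, 268 and 277 CPM (log2 0.95, SE 0.17, adjusted p = 0.00015). None of these groups overlapped, and the 24 h library of IFNγ then medium was the highest in each gene. mt-Co1 was at 4370, 4460, 4370 and 4420 CPM, a narrow range above the 3110 to 3710 CPM of medium then IFNγ (log2 0.36, SE 0.10, adjusted p = 0.004). The remaining calls were mt-Nd4 (0.76), mt-Nd5 (0.53) and the uncertain mt-Nd3 (1.96), mt-Atp6 (0.70) and mt-Co2 (0.58). mt-Co3 (0.67, adjusted p = 0.11) and mt-Nd6 (0.17, adjusted p = 0.45) did not pass the test.

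Nuclear genes that were higher with IFNγ first spread over all complexes, 15 in complex I, 3 in complex II, 2 in complex III, 7 in complex IV and 7 in complex V, beside Sdhaf4, which had 5.24, 4.39, 2.81 and 4.21 CPM in IFNγ then medium (log2 0.84, adjusted p = 0.00056), and the 12 h library lay within the 1.79 to 3.09 CPM of medium then IFNγ. Ndufa4 had 35.8, 25.4, 31.1 and 27.1 CPM (log2 0.56, adjusted p = 0.00023), all above medium then IFNγ, and 3 of them below every medium library. Atp5j2 (0.46), Cox7b (0.41) and Atp5mpl (0.40) followed. Lower with IFNγ first were Uqcrq (-0.31), Sdhaf2 (-0.31) and Uqcr10 (-0.24), a small subunit of complex III.

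**Figure D4:**
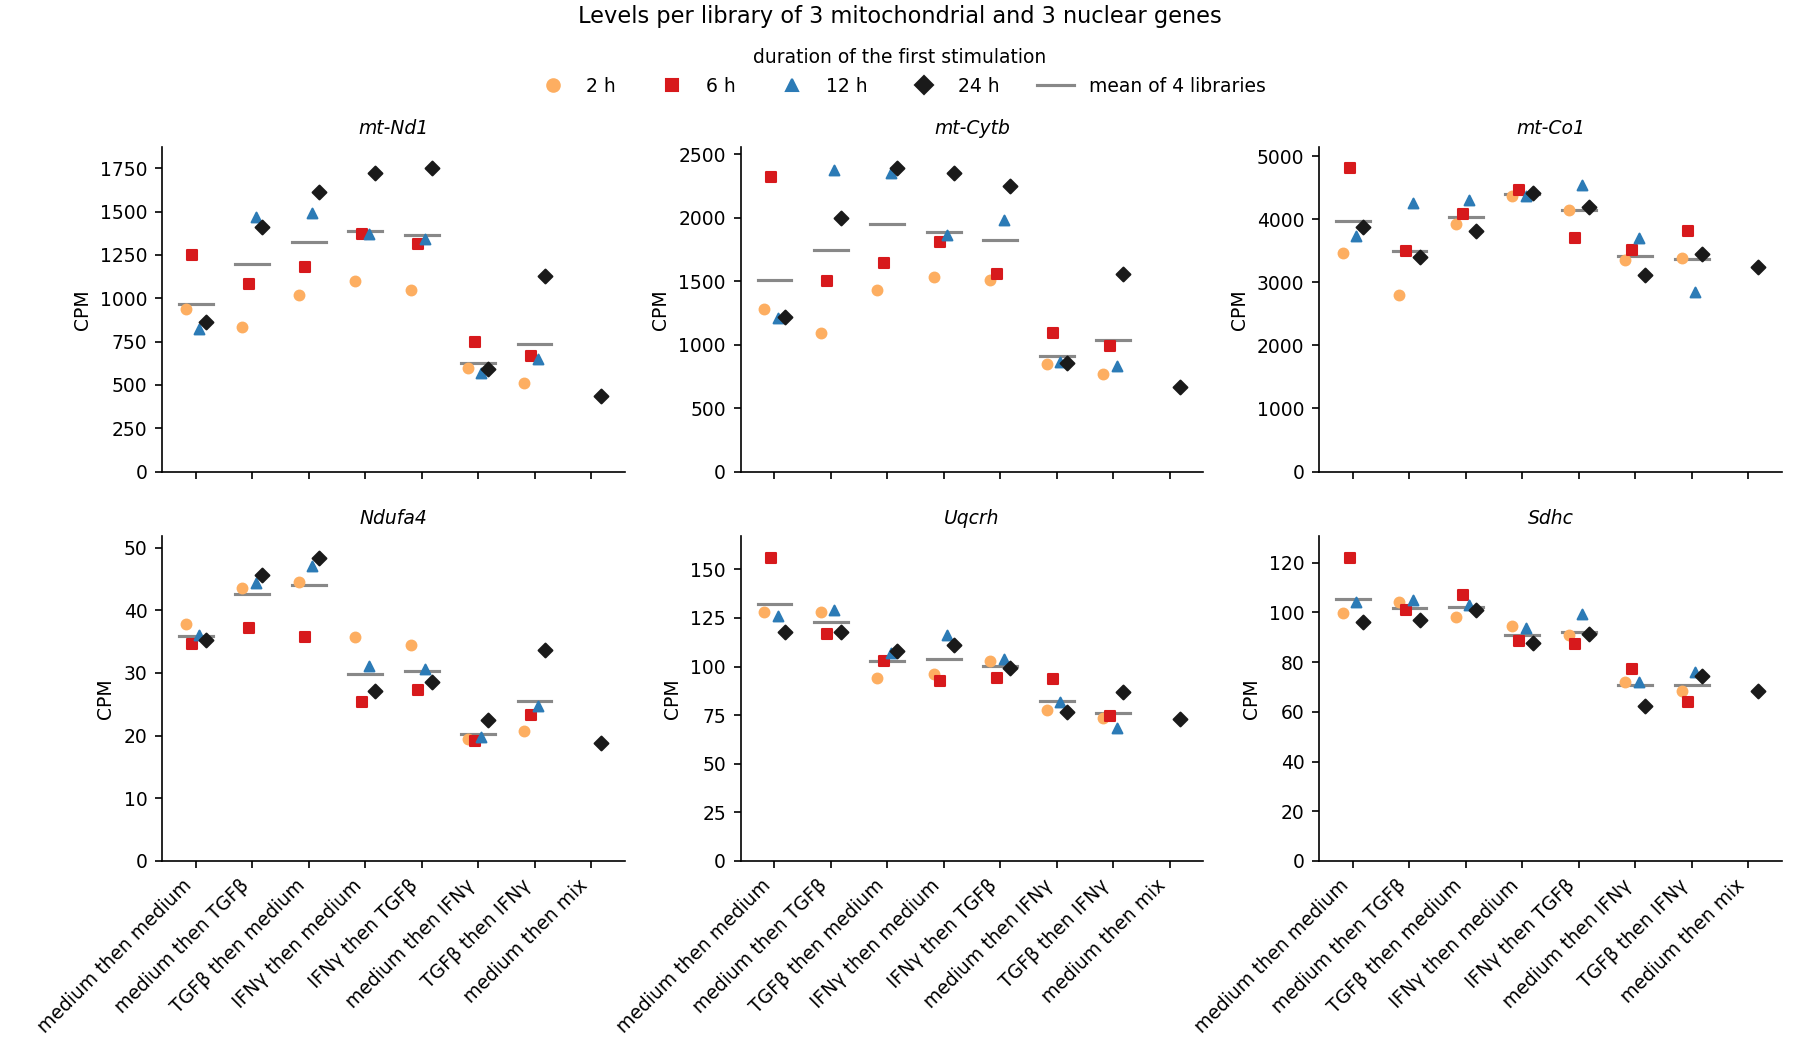
CPM per library (y axis, from 0) of mt-Nd1, mt-Cytb and mt-Co1 (upper panels) and of Ndufa4, Uqcrh and Sdhc (lower panels) by sequence of stimuli (x axis); points are libraries by duration of the first stimulus, and lines are means of 4 libraries. Medium then IFNγ lies below medium alone in every panel but mt-Co1, and mt-Nd1 after IFNγ then medium lies at 1100 to 1720 CPM against 820 to 1250 CPM in medium alone.

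Set against medium alone, IFNγ then medium gave few calls. By edgeR's test 0 nuclear genes were called, with 14 at an unadjusted p below 0.05, and DESeq2 called 1, beside 2.33% of all genes. Of the mitochondrial genes mt-Nd3 alone was called, at 5.77, 5.99, 7.23 and 8.86 CPM against 2.97, 4.51, 2.02 and 3.65 CPM (log2 1.06, SE 0.22, adjusted p = 0.027). Over all genes 0.79% were called. The mt-Nd3 call was lost in 6 of 8 fits that left out 1 library of either group, and without the duration factor. mt-Nd1 (1100 to 1720 CPM against 820 to 1250 CPM) overlapped between the groups only through the medium library of 6 h. The other medium libraries reached at most 940 CPM. Without the 6 h medium library edgeR called mt-Nd3 (log2 1.36, adjusted p = 0.0087) but not mt-Nd4 (0.60, adjusted p = 0.055) or mt-Nd1 (0.63, adjusted p = 0.079). The median log2 fold change over the mitochondrial genes was then 0.54, beside 0.30 with that library.

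TGFβ called few of these genes. In medium then TGFβ against medium alone 3 nuclear genes rose, 2 fell and 11 had an unadjusted p below 0.05, with 23.3% of all genes called, 11.7% higher and 11.6% lower. The count was 1 without the duration factor, 0 in a fit of only the 2 groups, and 3 without the 6, 12 or 24 h library of medium then TGFβ or the 6 h library of medium alone. The share of all genes called was 11.6% without the duration factor, 7.97% in the fit of the 2 groups and 17.2 to 21% in the others. Uqcrc1, a core protein of complex III, had 219, 220, 193 and 212 CPM against 190, 157, 179 and 197 CPM (log2 0.22, adjusted p = 0.013), which overlapped. Cox7b (0.21) and Cox5a (0.20) rose as well, and the complex I subunits Ndufv3 (-0.29) and Ndufa6 (-0.20) fell. Of the mitochondrial genes 0 were called by edgeR or DESeq2, and 0 had an unadjusted p below 0.05. Without the medium library of 6 h mt-Nd3 passed the test (log2 0.74, adjusted p = 0.015), and without the 12 h library of medium then TGFβ mt-Co1 did (-0.30, adjusted p = 0.032).

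When TGFβ came first and was followed by 24 h of medium, 9 nuclear genes rose and 10 fell against medium alone, where 29% of all genes were called, 14.5% higher and 14.5% lower. The count of 19 became 9 without the duration factor, 2 in a fit of only the 2 groups, and 10 or 12 without the 2 or 12 h library of TGFβ then medium. The share of all genes called in these fits was 17.5%, 10.5%, 27.2% and 23.4%. Cox5a had 72.1, 61.0, 66.3 and 73.2 CPM against 56.6, 52.7, 52.2 and 63.5 CPM (log2 0.28, adjusted p = 0.00044), and the groups overlapped at 61.0 and 63.5 CPM. Ndufa4 (0.28), Ndufs1 (0.20), Uqcrc1 (0.20) and Cox7b (0.19) rose. Ndufv3 had 24.4, 26.7, 21.6 and 21.8 CPM against 30.8, 39.2, 26.6 and 26.6 CPM (log2 -0.38, adjusted p = 0.0014), and it fell with Atp5k (-0.42), Uqcrh (-0.36), Ndufa1 (-0.31) and Ndufa6 (-0.24). Uqcrh was at 94 to 108 CPM after TGFβ first, below the 118 to 156 CPM of medium alone. Of the mitochondrial genes mt-Nd3 rose (log2 1.15, SE 0.22, adjusted p = 0.00041), a call that was lost in the fit of only the 2 groups (log2 1.18, adjusted p = 0.063). Without the medium library of 6 h mt-Cytb (0.63, adjusted p = 0.013), mt-Nd1 (0.56, adjusted p = 0.015) and mt-Nd4 (0.49, adjusted p = 0.012) also passed the test, as did mt-Nd1 without the medium library of 2 h (0.52, adjusted p = 0.028) or the 6 h library of TGFβ then medium (0.49, adjusted p = 0.048).

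TGFβ given first and TGFβ given second were not told apart. edgeR called 0 of 14935 genes (0%), 928 of them at an unadjusted p below 0.05, 14 nuclear and 2 mitochondrial genes of oxidative phosphorylation among these. DESeq2 called 1 nuclear gene of the set, beside 0.194% of all genes. Both tested melanocyte markers fell against medium alone in either order: Gpnmb by 1.47 on the log2 scale with TGFβ second and by 1.92 with TGFβ first, and Mitf by 0.41 and by 0.24.

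The cytokines in sequence were compared with the second cytokine after medium. TGFβ before IFNγ, against medium before IFNγ, raised 6 nuclear genes and lowered 3, with 15.8% of all genes called, 8.64% higher and 7.19% lower. The count of 9 became 3 without the duration factor or in a fit of only the 2 groups, and 4 or 5 without the 2, 6 or 12 h library of TGFβ then IFNγ or the 2 or 24 h library of medium then IFNγ. The share of all genes called was 8.25% without the duration factor, 16.4% in the fit of the 2 groups and 11.7 to 15.1% in the others. Uqcrc1 had 224, 225, 232 and 215 CPM against 180, 181, 191 and 190 CPM (log2 0.27, adjusted p = 0.0043), with no overlap. Ndufa4 had 20.7, 23.3, 24.7 and 33.7 CPM against 19.5, 19.1, 19.8 and 22.5 CPM (log2 0.34, adjusted p = 0.035), and the 24 h library stood highest. Ndufv3 had 17.4, 20.3, 17.6 and 20.1 CPM against 22.2, 26.6, 24.2 and 21.2 CPM (log2 -0.32, adjusted p = 0.011), without overlap. Cox7c (0.20), Ndufab1 (0.17), Cox5a (0.16) and Cox4i1 (0.14) rose, and Atp5g1 (-0.25) and Ndufs3 (-0.22) fell. Of the 9 nuclear calls only those of Uqcrc1 and Ndufv3 held in every fit that left out 1 library. Ndufa4 had a log2 difference of 0.20 (edgeR adjusted p = 0.21) without the 24 h library of TGFβ then IFNγ. Atp5g1 was also lost with DESeq2 (adjusted p = 0.079). mt-Nd3 was the only mitochondrial call (log2 1.13, SE 0.25, adjusted p = 0.0029). mt-Nd1 had 508, 666, 650 and 1130 CPM in TGFβ then IFNγ, so the 6 and 12 h libraries lay in the range of medium then IFNγ, that of 2 h below it and that of 24 h above it.

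IFNγ before TGFβ, against medium before TGFβ, lowered 1 nuclear gene, with 0.067% of all genes called lower and 0.0937% called in either direction. Ndufb8, a complex I subunit, had 37.7, 36.5, 36.2 and 33.9 CPM against 49.5, 46.3, 42.1 and 40.9 CPM (log2 -0.31, SE 0.06, adjusted p = 0.047), with the groups apart. This call was lost in 7 of 8 fits that left out 1 library of either group and without the duration factor. Of the mitochondrial genes 0 were called by edgeR, 2 had an unadjusted p below 0.05, and mt-Nd3 came nearest (log2 0.90, adjusted p = 0.076). DESeq2 called 1 of them, beside 0.991% of all genes.

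The mix of cytokines after medium has no replicate. Its mitochondrial sum of 0.502% was the lowest of the 29 libraries and its nuclear sum of 0.649% lay within the 0.642 to 0.712% of TGFβ then IFNγ. mt-Nd1 was at 437 CPM, mt-Cytb at 669 CPM and mt-Nd2 at 211 CPM, below every other library. Ndufa4 (18.9 CPM) was just below medium then IFNγ, Sdhc (68.3 CPM) lay within its range and Uqcrh (72.8 CPM) just below it, and Ndufv3 (14.9 CPM) was below all libraries of that sequence and of TGFβ then IFNγ.

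The duration of the first stimulus had its own association with the mitochondrial genes. With a common slope for all sequences, 4 of 11 mitochondrial genes rose with each doubling of the duration: mt-Nd3 by 0.22 on the log2 scale (adjusted p = 0.0075), mt-Cytb by 0.15 (adjusted p = 0.027), mt-Nd1 by 0.14 (adjusted p = 0.013) and mt-Nd2 by 0.12 (adjusted p = 0.033). Of the 83 nuclear genes 0 rose and 2 fell, Uqcrq (-0.05) and Ndufb1-ps (-0.05), with 11.6% of all genes called, 5.87% higher and 5.72% lower. Without all medium libraries 7 nuclear genes rose and 2 fell, in a fit that called 20% of all genes. The slope was not shared evenly. For mt-Nd1, medium alone had 940 CPM at 2 h and 863 CPM at 24 h, and medium then IFNγ 595 and 592 CPM. By contrast TGFβ then medium went from 1020 to 1610 CPM, IFNγ then medium from 1100 to 1720 CPM and medium then TGFβ from 836 to 1410 CPM. TGFβ then IFNγ went from 508 to 1130 CPM and IFNγ then TGFβ from 1050 to 1750 CPM. A longer first stimulus also meant more time in culture, and in sequences with a first cytokine these cannot be told apart. In sequences that began with medium the duration changed only the time in culture before the second stimulus. The part of either in the common slope was not tested.

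Genes that maintain, express and assemble the system were counted in lists, to be read beside the 22.7% of all genes called higher and 21.2% called lower after IFNγ second. After that stimulus, regulators of mitochondrial biogenesis rose in 6 of 10 cases and fell in 0, among them the coactivators Ppargc1b (log2 1.23) and Pprc1 (0.53), Myc (1.00), Gabpb1 (0.25), Nrf1 (0.20) and Esrra (0.19). Ppargc1a (-0.55, adjusted p = 0.17) and Gabpa (0.01) did not pass the test. Of 77 mitochondrial ribosome genes 23 rose and 10 fell, led by Mrpl13 (0.72) and Mrps2 (0.43) on one side and Mrps21 (-0.45) and Mrpl33 (-0.43) on the other. Of 12 genes of mitochondrial DNA maintenance 4 rose and 0 fell: the nuclease Mgme1 (0.39), the topoisomerase Top1mt (0.34), Rnaseh1 (0.26) and the packaging factor Tfam (0.21).

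Of 28 genes for mitochondrial transcription and RNA turnover 9 rose and 3 fell. Tbrg4 (0.59) and Pnpt1 (0.54, adjusted p = 0.03) rose most, and Hsd17b10 (-0.49) and Mterf2 (-0.48) fell most. Pnpt1 encodes polynucleotide phosphorylase, a ribonuclease of the organelle known as interferon-induced. It had a mean of 290 ± 30.8 CPM (SD, n = 4) in medium then IFNγ against 199 ± 36.8 in medium alone, 163 ± 32.7 in IFNγ then medium and 117 ± 50.2 in TGFβ then medium. Its log2 difference was -0.88 between IFNγ first and second and -0.85 between TGFβ first and medium. The mitochondrial RNA polymerase Polrmt (-0.06) and the RNA-binding partners Lrpprc (-0.10) and Slirp (0.13) did not pass the test after IFNγ second.

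The other lists held genes called in both directions after IFNγ second, though the stress response list mostly rose. Of 15 stress response genes 11 rose and 1 fell, with Ddit3 (0.81) and the superoxide dismutase Sod2 (0.55) against Atf5 (-0.28). Of 15 electron carrier genes 4 rose and 3 fell, cytochrome c (Cycs, 0.83) and Pdss1 (1.17) against Coq8a (-1.76) and Etfdh (-0.49). Of 16 assembly factors of complex I 4 rose and 3 fell, with Ndufaf4 (0.55) and Foxred1 (0.37) against Ndufaf3 (-0.51) and Tmem126b (-0.45), and of 29 for complexes III to V 5 rose and 5 fell, with Cox18 (0.49) and Cox10 (0.39) against Fmc1 (-0.50) and Cox19 (-0.40). Of 19 genes of the tricarboxylic acid cycle and pyruvate dehydrogenase 3 rose and 5 fell, with Dlst (0.34) and Cs (0.22) against Pdha1 (-0.28) and Fh1 (-0.24). Of 7 hypoxia-linked genes 3 rose and 2 fell, with Higd1a (0.78), Lonp1 (0.38) and Bnip3 (0.37) against Bnip3l (-0.55) and Fundc1 (-0.53), and Pdk1 (-0.23) did not pass the test.

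With TGFβ first against medium alone, where 14.5% of all genes were called higher and 14.5% lower, 9 of the 19 tricarboxylic acid cycle genes rose and 0 fell, led by the pyruvate carrier Mpc1 (0.61) and Idh3a (0.38).

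Promoters of the nuclear genes were read for 3 motifs linked to this gene class, because the nuclear genes share regulators that the choice by name did not use. Windows ran from 250 bases before to 50 after the RefSeq start (GRCm38.p6), were found for 72 nuclear genes, and were searched on both strands without mismatch, so overlapping matches count once per gene. The core of the NRF1 motif, GCGCANGCG, occurred in 22 of the 72 (30.6%), in 15.5% of the 10069 promoters of tested genes and in 7.0% of all 27025. The YY1 core AAGATGGCG occurred in 9.7%, 3.6% and 1.6% of these, and the ETS motif CCGGAAGT of the GABPA type in 6.9%, 9.3% and 4.3%. The promoters of 68 mitochondrial ribosome genes held them in 23.5% (NRF1), 11.8% (YY1) and 17.6% (ETS). Of the tested genes with the NRF1 core 13 of 22 fell after IFNγ second and 0 rose (median log2 fold change -0.17), and of those without 20 of 47 fell and 3 rose (-0.13).

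The 120 bases before the start are shown for Sdhaf4 (chr1:24005641-24005760) and Uqcrh (chr4:116075071-116075190), which fell most among nuclear genes with a match, and for Sdha (chr13:74350241-74350360), whose window holds several NRF1 cores beside a small change. All are on the minus strand and are written 5′ to 3′ in the direction of the gene. Capitals mark an NRF1 core on either strand in Sdhaf4 and Sdha and the ETS motif, here on the opposite strand, in Uqcrh. A match is a run of letters and not a measured site. The window of Ndufa4 held none of the 3 motifs.
Sdhaf4: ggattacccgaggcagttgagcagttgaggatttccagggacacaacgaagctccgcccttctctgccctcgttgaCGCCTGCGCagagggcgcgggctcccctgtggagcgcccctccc
Uqcrh: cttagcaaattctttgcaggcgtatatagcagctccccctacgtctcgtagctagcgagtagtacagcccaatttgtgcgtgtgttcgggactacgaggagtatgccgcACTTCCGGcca
Sdha: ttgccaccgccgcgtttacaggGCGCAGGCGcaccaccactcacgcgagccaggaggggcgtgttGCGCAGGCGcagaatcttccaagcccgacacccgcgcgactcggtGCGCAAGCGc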

How the data were processed

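The authors deposited 1 table of raw read counts per Ensembl gene for the 29 mRNA libraries. HISAT, with no version, and GRCm38 are named per the submitters' processing notes. Annotation release, strand setting and counting tool were not given in the sources used here. Overlapping antisense genes may therefore share reads. Of 28229 gene IDs 28182 were in GENCODE M21, 27962 at the same coordinates; 0 entries lacked a gene name and 0 columns belonged to other samples.

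In R 4.3.3 with edgeR 4.0.16, genes were filtered with filterByExpr by group (minimum count 10), libraries scaled by TMM, and 1 quasi-likelihood model with a term per sequence and a factor for duration fitted to all 29 libraries (14935 genes, 18 residual degrees of freedom). Genes were called at a Benjamini-Hochberg adjusted p below 0.05. SE is the fold change over the root of F. CPM used TMM-scaled library sizes; CPM per kb divides by summed exon length. The duration slope came from a model with a term per sequence (20 residual degrees of freedom). The code was tested on simulated counts. Intervals of counting error are small beside the spread for genes with many counts. For tested genes with few counts, such as mt-Co3 at a mean of 10.3 per library, counting error is a larger part of the spread. Counts near 0 limit the 8 untested genes.

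The duration is the number that same-numbered libraries share. Deviations from group means of libraries of 1 duration correlated by -0.0409 to 0.233 in the comparisons with medium alone, by 0.106 to 0.288 for TGFβ before IFNγ, 0.138 to 0.333 for IFNγ before TGFβ, 0.371 to 0.499 for TGFβ first against second and 0.0392 to 0.213 for IFNγ first against second.

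Genes and lists were chosen with earlier results of these data known. Named were all mitochondrial genes, up to 5 called nuclear genes with the highest and 5 with the lowest log2 fold change per comparison, anchor subunits, isoform pairs, set regulators and up to 2 called genes in each direction per list; those named for their level, variation or promoter were chosen after their values were seen. The values of 1 anchor subunit are not reported here. Alternatives were DESeq2 1.42.0, no filter, no duration factor, library sizes without mitochondrial genes, 28 fits without 1 library and, added after seeing the data, fits of only the groups compared.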

Additional observations from a re-analysis of the deposited data

Results flagged for a closer look

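Within groups of 4 libraries a single value stood apart in 9 of 168 groups examined, by a gap to the nearest library above the limit of Dixon's test at 95%. Chance gives about 1 in 20 such groups. Of the 9, 5 belong to the medium library of 6 h. Its mitochondrial sum was 1.12% of counts against 0.747 to 0.770% in the other medium libraries, and its log2 ratio of the genomes 0.582 against -0.0537 to -1.97e-05. It had 602 CPM of mt-Nd4 against 319 to 362, 1230 CPM of mt-Nd5 against 599 to 669, and 2320 CPM of mt-Cytb against 1210 to 1280.

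The library of medium then IFNγ with a first stimulus of 6 h was high in mt-Nd1 (746 CPM against 568 to 595) and mt-Cytb (1090 CPM against 850 to 860). In IFNγ then TGFβ the 24 h library had 12.9 CPM of mt-Nd3 against 6.55 to 7.49. In TGFβ then IFNγ the 12 h library had 102 CPM of mt-Nd6 against 148 to 155. The cause was not tested.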

How the results depend on the processing

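None of the called genes chosen for naming by rule (all mitochondrial calls, the highest and lowest nuclear calls and the anchor subunits) changed its direction under any alternative. The other called genes were not checked for this. Of the ratio differences, 2 small ones changed sign: TGFβ second against medium (-0.0481) was 0.0816 from median log2 CPM, 0.113 without mt-Co1, mt-Co2 and mt-Co3, 0.109 without the 2 h library of medium then TGFβ and 0.103 without the 6 h medium library, and TGFβ before IFNγ (-0.00653) was 0.0211, 0.0506 and, without single libraries, up to 0.09. Without the duration as a replicate block the counts of nuclear calls were 38 (44 with it) for IFNγ second, 31 (38) for IFNγ first against second, 9 (19) for TGFβ first, 3 (9) for TGFβ before IFNγ, 1 (5) for TGFβ second and 0 (1) for IFNγ before TGFβ; the mitochondrial counts were 4 (4) for IFNγ second, 9 (9) for IFNγ first against second and 0 (1) for IFNγ first. Without the block, the share of all genes called was 35.1% (43.8% with it) for IFNγ second and 32.3% (41.6%) for IFNγ first against second. It was 17.5% (29%) for TGFβ first, 8.25% (15.8%) for TGFβ before IFNγ and 11.6% (23.3%) for TGFβ second. For IFNγ before TGFβ it was 0.0067% (0.0937%), and for IFNγ first 0.0402% (0.79%). Fits of only the groups compared, with fewer libraries, called 26, 2, 3, 0 and 2 nuclear genes for IFNγ second, TGFβ first, TGFβ before IFNγ, TGFβ second and IFNγ before TGFβ, and 0, 0 and 1 mitochondrial genes for IFNγ first, TGFβ first and IFNγ before TGFβ. They called 36.6%, 10.5%, 16.4%, 7.97% and 0.555% of all genes in the order of the nuclear counts, and 0% for IFNγ first. Without the filter the nuclear calls were 9 for TGFβ first, 3 for TGFβ before IFNγ, 2 for IFNγ before TGFβ and 1 for IFNγ first, the mitochondrial calls 2 for TGFβ first and 1 for IFNγ before TGFβ. Of the 28229 genes then tested 12.9%, 6.96%, 0.329% and 0.595% were called, in the order of the nuclear calls. DESeq2 called 3, 1 and 1 nuclear genes for IFNγ before TGFβ, IFNγ first and TGFβ first against second, and 1 mitochondrial gene for IFNγ before TGFβ. Its shares of all genes in these 3 comparisons were 0.991%, 2.33% and 0.194%. The duration slope called 14 genes without all medium libraries and 6 with them, beside 20% and 11.6% of all genes. The ratio difference between IFNγ first and second was 0.77 from median log2 CPM and 0.814 without mt-Co1, mt-Co2 and mt-Co3. The cause was not tested.

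Leaving out 1 library gave 35 to 43 nuclear and 2 to 6 mitochondrial calls for IFNγ second, 29 to 36 and 8 to 9 for IFNγ first against second, 0 to 1 and 0 to 1 for IFNγ first, 10 to 19 and 1 to 4 for TGFβ first, 3 to 7 and 0 to 1 for TGFβ second, 4 to 10 and 1 to 1 for TGFβ before IFNγ, 0 to 2 and 0 to 0 for IFNγ before TGFβ, and 0 and 0 for TGFβ first against second. The share of all genes called ran from 38.4 to 42.8%, 35.6 to 38.7%, 0.00668 to 3.34%, 22 to 29.4%, 17.2 to 24.9%, 11.7 to 15.1%, 0 to 0.302% and 0 to 0.0402% in that order. The log2 ratio differences ran from -0.322 to -0.11, 0.496 to 0.599, 0.229 to 0.441, 0.103 to 0.315, -0.176 to 0.108, -0.086 to 0.09, 0.12 to 0.404 and 0.055 to 0.34 in the same order. Depth limits mt-Nd3, mt-Co3 and Sdhaf4, which lie at a few CPM or less.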
